A study of Mus musculus with 30 samples.

Results

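The 8 genes described here are expressed in granulocytes, the white blood cells that include neutrophils: S100a8, S100a9, Ngp, Camp, Ltf, Retnlg, Mpo and Elane. They were taken by name from a table of 48820 genes measured in mouse hearts, by matching Ensembl identifiers without their version to GENCODE M21, and all 8 were found. The rule goes by gene name and uses no measured value. Each was followed across 10 ages from embryo to adult.

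Neutrophils mature in blood-forming organs in an ordered way. Promyelocytes, the early precursors, make the primary (azurophil) granules, which hold myeloperoxidase (Mpo) and neutrophil elastase (Elane). Myelocytes and metamyelocytes then make the secondary granules, which hold lactoferrin (Ltf), the cathelicidin peptide (Camp) and neutrophilic granule protein (Ngp). S100a8 and S100a9 encode the paired calcium-binding proteins of calprotectin, abundant in the cytosol of neutrophils and also made by monocytes, and Retnlg encodes a secreted resistin-like protein of maturing neutrophils. In mice, blood formation moves from the yolk sac to the fetal liver and, around birth, to the bone marrow. Neutrophils are not formed in the heart and reach it with the blood.

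The hearts came from WT, untreated mice at the embryonic (E) days E10.5 and E12.5, at E14.5 and E16.5, at E18.5, on postnatal day 1 (P1), and at 1, 2, 4 and 8 weeks (1W, 2W, 4W and 8W), with 3 libraries of poly(A) RNA per age. No agent or allele was applied in any group. The labels give neither strain nor sex, nor say whether a library is 1 heart or several. Transcripts of the Y chromosome and Xist were found together in all 3 libraries of E10.5 and in 2 of 3 libraries of E12.5 and of E14.5, and in 0 libraries of later ages. The p-values measure the spread between these samples, which may be technical. In whole organs, fewer cells of a type and less RNA per cell cannot be told apart.

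Library totals ran from 23164941 to 50519457 counts, so that at P1 3 counts over the group stood for a level of 0.0331 CPM (counts scaled to library size and by TMM, edgeR's trimmed mean of M values). All 8 cardiomyocyte markers had counts in all 30 libraries. The small nuclear RNA Rn7sk was at 27900 CPM in E10.5 replicate 2, at 4570 and 4310 CPM in replicates 1 and 3, and between 8090 and 18900 CPM at later ages. All 3 P1 libraries held transcripts of the Y chromosome without Xist, and all 3 libraries of 4W and of 8W held Xist without them, so sex and age cannot be told apart between P1 and either of those ages from these libraries alone. Replicate 2 of P1 held 46.4 CPM over 6 hepatocyte markers (among them Alb and Afp), against 1.29 and 3.57 in the other P1 libraries and 1.88 to 14.2 at E18.5.

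The genes lie on 5 chromosomes of GRCm38. S100a8 (chr3:90668978-90670035, plus strand) and S100a9 (chr3:90692632-90695721, minus strand) lie 22.6 kb apart. Camp (chr9:109847379-109849617, minus), Ngp (chr9:110419747-110423012, plus) and Ltf (chr9:111019271-111042767, plus) share chromosome 9, with gaps of 570.1 kb between Camp and Ngp and 596.3 kb between Ngp and Ltf. Retnlg lies at chr16:48872621-48874496, Mpo at chr11:87793581-87804413 and Elane at chr10:79886247-79888215, all on the plus strand. Mpo overlaps Gm11505 on the opposite strand. Gm11505 held 1 count in all at E10.5 and 0 at every other age.

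Promoter sequence is shown for 1 cytosolic, 1 secondary granule and both primary granule genes, because these groups had different age profiles. The stretches lie before the annotated starts, are from RefSeq (GRCm38.p6), and are written 5′ to 3′ on the gene's strand. Capitals mark matches on either strand to TTNNGNAA, the C/EBP-like motif, and GAGGAA, the PU.1-like motif (TTCCTC on the other strand). C/EBP proteins and PU.1 are transcription factors of the granulocyte lineage. The intervals are chr3:90695722-90695971 (minus strand) for S100a9, chr9:110419558-110419746 (plus) for Ngp, chr11:87793534-87793580 (plus) for Mpo and chr10:79886062-79886246 (plus) for Elane.
S100a9: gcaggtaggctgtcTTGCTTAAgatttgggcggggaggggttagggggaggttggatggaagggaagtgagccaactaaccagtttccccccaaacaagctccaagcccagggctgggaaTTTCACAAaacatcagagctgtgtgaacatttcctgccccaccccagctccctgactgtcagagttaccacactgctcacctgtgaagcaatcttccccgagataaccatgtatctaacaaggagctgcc
Ngp: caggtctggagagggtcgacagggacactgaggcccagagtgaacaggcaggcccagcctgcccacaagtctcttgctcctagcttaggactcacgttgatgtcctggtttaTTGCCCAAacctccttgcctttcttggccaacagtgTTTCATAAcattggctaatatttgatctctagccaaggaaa
Mpo: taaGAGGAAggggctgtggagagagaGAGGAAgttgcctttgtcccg
Elane: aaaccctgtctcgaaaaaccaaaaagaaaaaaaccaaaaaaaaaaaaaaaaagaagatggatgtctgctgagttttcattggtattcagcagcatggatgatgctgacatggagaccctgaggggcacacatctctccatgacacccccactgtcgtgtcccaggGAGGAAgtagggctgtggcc
Matches were counted over the full windows of 250 bases before the RefSeq starts. The stretches shown for Ngp, Mpo and Elane are parts of these windows, cut at the GENCODE M21 start. Counted matches can therefore lie in parts not shown, which can be transcribed. Over the windows of all 8 genes, the C/EBP-like motif was present in 5, namely S100a8, S100a9, Ngp, Ltf and Retnlg. It was present in 36.8% of the 32851 RefSeq windows of this length read the same way. The PU.1-like motif was present in 4, namely S100a8, Ltf, Mpo and Elane, against 23.3% of all windows. The Runx-like motif AACCACA was in none of the 8 windows and in 4.4% of all windows. A match describes letters in a window and is not evidence of binding.

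The transcripts were scarce at every age. Summed over the 8 genes, a library held 0.718 to 22.6 CPM, while Ptprc, the common leukocyte antigen CD45, alone averaged 0.566 CPM at E10.5 and 10.3 CPM at 8W. Ltf had counts in 28 of 30 libraries, S100a9 in 27, S100a8 and Ngp in 25, Retnlg and Mpo in 21, Camp in 19 and Elane in 3. Of the 8 genes, 6 passed the filter on low counts, and Camp and Elane did not. All 6 varied across the 10 ages (edgeR, adjusted p under 0.05), as did 93.6% of the 19280 genes tested, so that count is near the background.

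**Figure D1:**
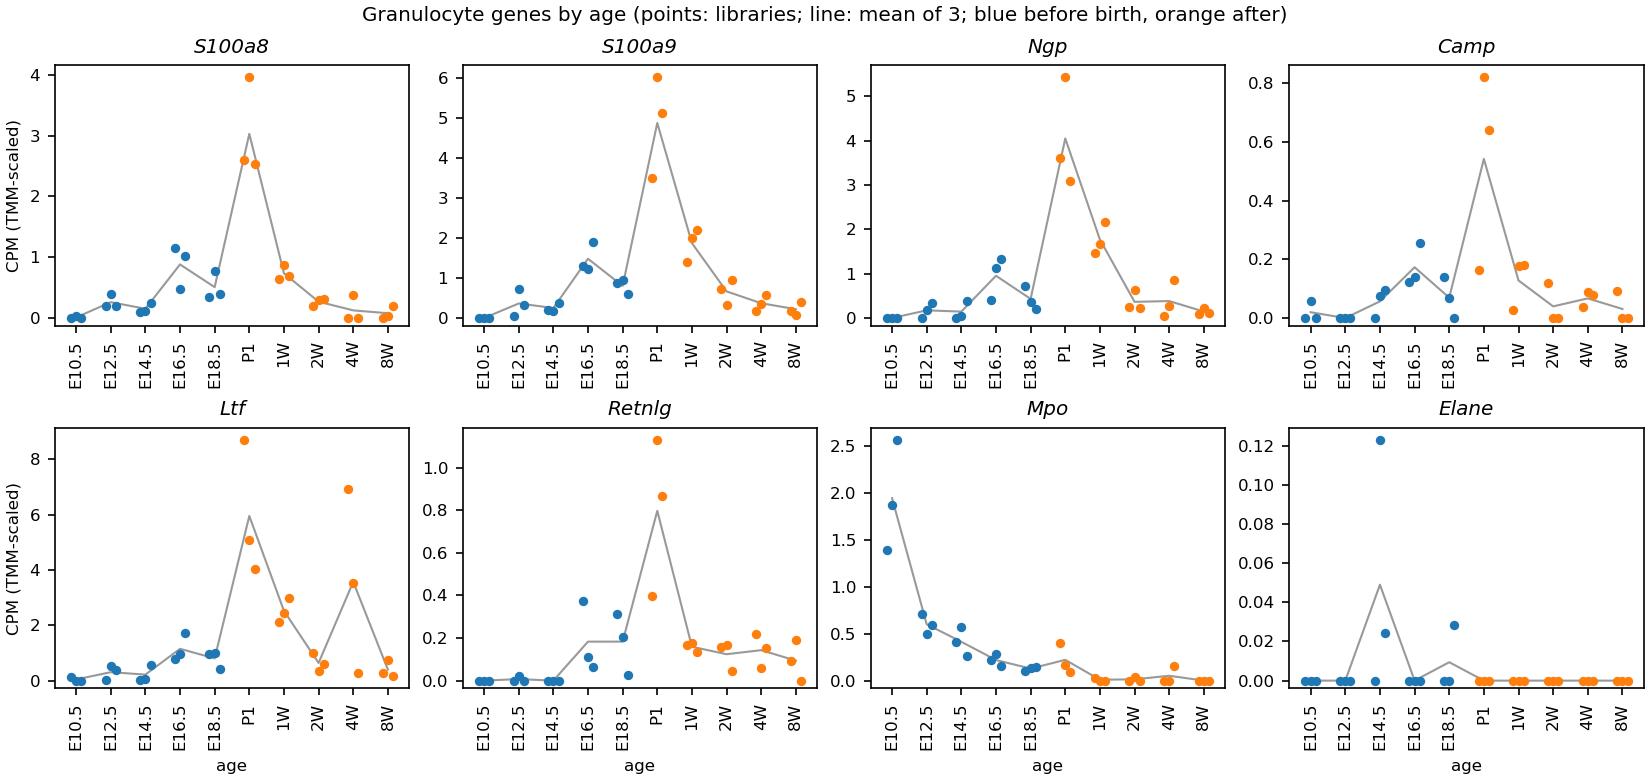
Level of each gene in each library (points, CPM scaled by TMM, a different linear axis per panel) at 10 ages, with the mean of the 3 libraries as a line. S100a8, S100a9, Ngp, Camp, Ltf and Retnlg have their highest mean at P1, Mpo has its highest at E10.5, and Ltf has a second high mean at 4W made by 2 of 3 libraries.

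Mpo, the heme enzyme of primary granules, was the member found in quantity at the youngest age. Its libraries held 43, 63 and 105 counts at E10.5 and 29, 23 and 27 at E12.5. They held 17, 23 and 11 at E14.5, 7, 10 and 5 at E16.5, and 3, 6 and 5 at E18.5. Every E10.5 library lay above every library of any other age. The mean level was 1.94 ± 0.586 CPM at E10.5, 0.599 ± 0.106 at E12.5 and 0.128 ± 0.0201 at E18.5 (SD, n = 3 at each). Mpo fell by 1.7 ± 0.48 on the log2 scale (SE, adjusted p = 0.0035) from E10.5 to E12.5, and fell by 3.87 ± 0.58 (adjusted p = 8.4e-07) from E10.5 to E18.5. Without replicate 2 of E10.5, the first of these falls was 1.72 (adjusted p = 0.0077). After birth it had 12, 5 and 3 counts at P1, 1 count in all at 1W and at 2W, 4 counts in 1 library at 4W, and none at 8W.

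Elane, the serine protease that is stored beside Mpo, was nearly absent: 0, 5 and 1 counts at E14.5, 0, 0 and 1 at E18.5, and none elsewhere. At P1 the 0 counts allow up to 0.0331 CPM. Elane had no counts at E10.5 while Mpo had 211. Its age term did not pass when the filter was dropped (adjusted p = 0.25).

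S100a8 and S100a9 had a shared profile with a rise in the embryo and a peak at P1. S100a9 had no count at E10.5, then 2, 33 and 15 counts at E12.5, 8, 7 and 16 at E14.5, 42, 44 and 60 at E16.5, 25, 41 and 21 at E18.5. It had 106, 176 and 159 counts at P1, then 51, 80 and 98 at 1W, 18, 8 and 21 at 2W, 5, 12 and 15 at 4W and 4, 2 and 10 at 8W. The P1 libraries lay above all others. S100a8 had 10, 34 and 14 counts at E18.5, 79, 116 and 79 at P1, 23, 35 and 31 at 1W, 5, 7 and 7 at 2W, 0, 13 and 0 at 4W and 0, 1 and 5 at 8W. At P1 the level per kilobase of exon was 9.33 ± 2.44 CPM for S100a9 and 4.37 ± 1.16 for S100a8 (SD, n = 3), the highest pair of the 8 genes. S100a8 made up 38.3% of the counts of the pair at P1 (Wilson interval 34.8 to 41.9%) and 28% at 1W (23.3 to 33.2%), intervals that cover counting error only.

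Among the secondary granule genes, Ngp had 21, 16 and 7 counts at E18.5, 110, 159 and 96 at P1, 53, 67 and 97 at 1W, 6, 15 and 5 at 2W, 1, 9 and 22 at 4W and 2, 6 and 3 at 8W. Its P1 libraries lay above those of 1W, and its 1W libraries above those of every age but P1. Ltf, the iron-binding lactoferrin, had 28, 44 and 15 counts at E18.5, 264, 149 and 126 at P1, 77, 98 and 133 at 1W, 25, 8 and 13 at 2W, 192, 121 and 7 at 4W and 6, 20 and 4 at 8W. Its 4W libraries overlapped those of P1, because replicates 1 and 2 of 4W held 6.93 and 3.52 CPM against 0.271 in replicate 3. Camp had 4, 3 and 0 counts at E18.5, 5, 24 and 20 at P1 and 1, 7 and 8 at 1W, with at most 8 counts in any library of another age.

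Retnlg was the latest of the tested members to appear. It had 1 count in all at E12.5 and none at E10.5 or E14.5, then 12, 4 and 2 at E16.5 and 9, 9 and 1 at E18.5. At P1 it had 12, 33 and 27 counts, and from 1W to 8W no library held more than 7. In CPM its P1 libraries lay above all others, but only just. Replicate 1 of P1 and replicate 1 of E16.5 both held 12 counts (0.395 and 0.373 CPM).

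Ranked by mean level, the 10 ages give 9 neighbouring pairs for each gene. The ranges of the 3 libraries overlapped in 6 of these pairs for S100a9, 7 for S100a8, Ngp and Mpo, 8 for Ltf and Retnlg and 9 for Camp and Elane. P1 stood clear of the next age for S100a8, S100a9, Ngp and Retnlg, and E10.5 did so for Mpo. For Ltf the clear gap lay between 1W, which ranked after P1 and 4W, and E16.5. Most other neighbours in these orders cannot be ranked by 3 libraries.

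Between E10.5 and E12.5, 4 of 6 tested members passed the test, S100a8, S100a9 and Ngp higher and Mpo lower, against 55.4% of all genes in either direction. S100a9 was at least 13.2-fold higher at E12.5 against a floor of 3 counts over the E10.5 group (adjusted p = 7.7e-05). Ngp was at least 6.36-fold higher by the same floor (adjusted p = 0.033), with 0, 8 and 16 counts, so its groups overlapped. The Ngp call was lost without any 1 of the 3 E10.5 libraries or replicates 2 or 3 of E12.5 (adjusted p up to 0.13). It was also lost with no filter on low counts (adjusted p = 0.065). S100a8 had 8, 18 and 9 counts against 0, 1 and 0, a ratio of 27.8 (counting interval 4.68 to 1130). The only E10.5 count lay in replicate 2, the library high in Rn7sk, and without it the fitted log2 change of S100a8 went from 4.33 to 6.17 (adjusted p = 0.0025), while that of S100a9 was 6.66 with it and without it. These fitted values depend on the prior count, since E10.5 then has no counts. Macrophage markers rose over the same step in 9 of 10 genes.

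From E12.5 to E14.5 none of the 6 members passed the test with edgeR or DESeq2, and 0 had an unadjusted p under 0.05, while 18.3% of all genes were called. From E14.5 to E16.5, 4 of 6 rose, against 14.1% of all genes, or 7.82% with scaling by library size alone. S100a8 rose by 2.49 ± 0.62 on the log2 scale (SE, adjusted p = 0.003), from 4, 5 and 10 counts to 37, 17 and 32. S100a9 rose by 2.55 ± 0.52 (adjusted p = 0.00045). Ngp rose by 2.68 ± 0.87 (adjusted p = 0.025), from 0, 2 and 16 counts to 13, 40 and 42. The change was 5.1 without replicate 3 of E14.5, and the call was lost without replicates 1 or 2 of E14.5 or 2 or 3 of E16.5 (adjusted p up to 0.1). The Ngp call was also lost with no filter (adjusted p = 0.057) and with only the 6 libraries of these ages (adjusted p = 0.055). Retnlg was at least 7.48-fold higher (18 counts against 0, adjusted p = 0.0039). For Ltf, which had 1, 2 and 24 counts and then 25, 34 and 54, the difference was 2.37 ± 0.98 (adjusted p = 0.081).

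Erythroid transcripts were also high at E16.5. Summed over 9 erythroid markers, globins included, the libraries ran from 4250 to 5680 CPM at E14.5, 18900 to 33500 at E16.5 and 2320 to 6600 at E18.5, and 7 of the 9 rose from E14.5 to E16.5. Of 7 mast cell and basophil markers, 3 of the 4 tested rose in the same step, from 1.08 to 1.89 CPM and then 10.1 to 12.5 in sum, with Ms4a2, Fcer1a and Mcpt8 at 0 at E14.5. The part of either in the members' rise was not tested. From E16.5 to E18.5 none of the 6 members passed the test in the edgeR fit of all libraries or with DESeq2. In that edgeR fit 0 had an unadjusted p under 0.05, while 24.2% of all genes were called. With edgeR on only the 6 libraries of these ages, 1 member was called. For S100a9 (146 counts and then 87) and Mpo (22 and then 14), every E18.5 library lay below every E16.5 library.

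Of the 9 steps between neighbouring ages, the one from E18.5 to P1 had the most member calls. Of the 6 tested members, 5 rose, namely S100a8, S100a9, Ngp, Ltf and Retnlg, against 19.8% of all genes that rose, or 13.4% with scaling by library size alone. The median log2 change was 2.57 over the 6 members and -0.01 over all genes. S100a9 rose from 0.802 ± 0.184 to 4.87 ± 1.28 CPM (SD, n = 3), a log2 change of 2.59 ± 0.45 (SE, adjusted p = 3.7e-05). S100a8 rose from 0.508 ± 0.237 to 3.03 ± 0.804 CPM, a change of 2.54 ± 0.53 (adjusted p = 0.00028). For each of the 5 genes, all 3 P1 libraries lay above all 3 E18.5 libraries.

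Ngp rose by 3.26 ± 0.74 on the log2 scale (adjusted p = 0.0013), from 0.432 ± 0.273 to 4.05 ± 1.23 CPM. Ltf rose by 2.88 ± 0.8 (adjusted p = 0.0068), from 0.803 ± 0.329 to 5.95 ± 2.44 CPM. Camp, with the filter dropped, had a change of 2.95 ± 1.0 (adjusted p = 0.022). Retnlg rose by 2.13 ± 0.71 (adjusted p = 0.018). Mpo differed by 0.75 ± 0.67 (adjusted p = 0.4), with 3, 6 and 5 counts before birth and 12, 5 and 3 after it.

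The Retnlg call was lost without replicates 2 or 3 of E18.5 or 2 or 3 of P1 (adjusted p 0.051 to 0.11). Without the P1 library that held hepatocyte transcripts, the changes were 2.3 for S100a8, 2.42 for S100a9, 2.98 for Ngp and 2.98 for Ltf, all still past the threshold. With a term for sex, S100a8, S100a9, Ngp and Ltf passed, and Retnlg did not (adjusted p = 0.069).

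**Figure D2:**
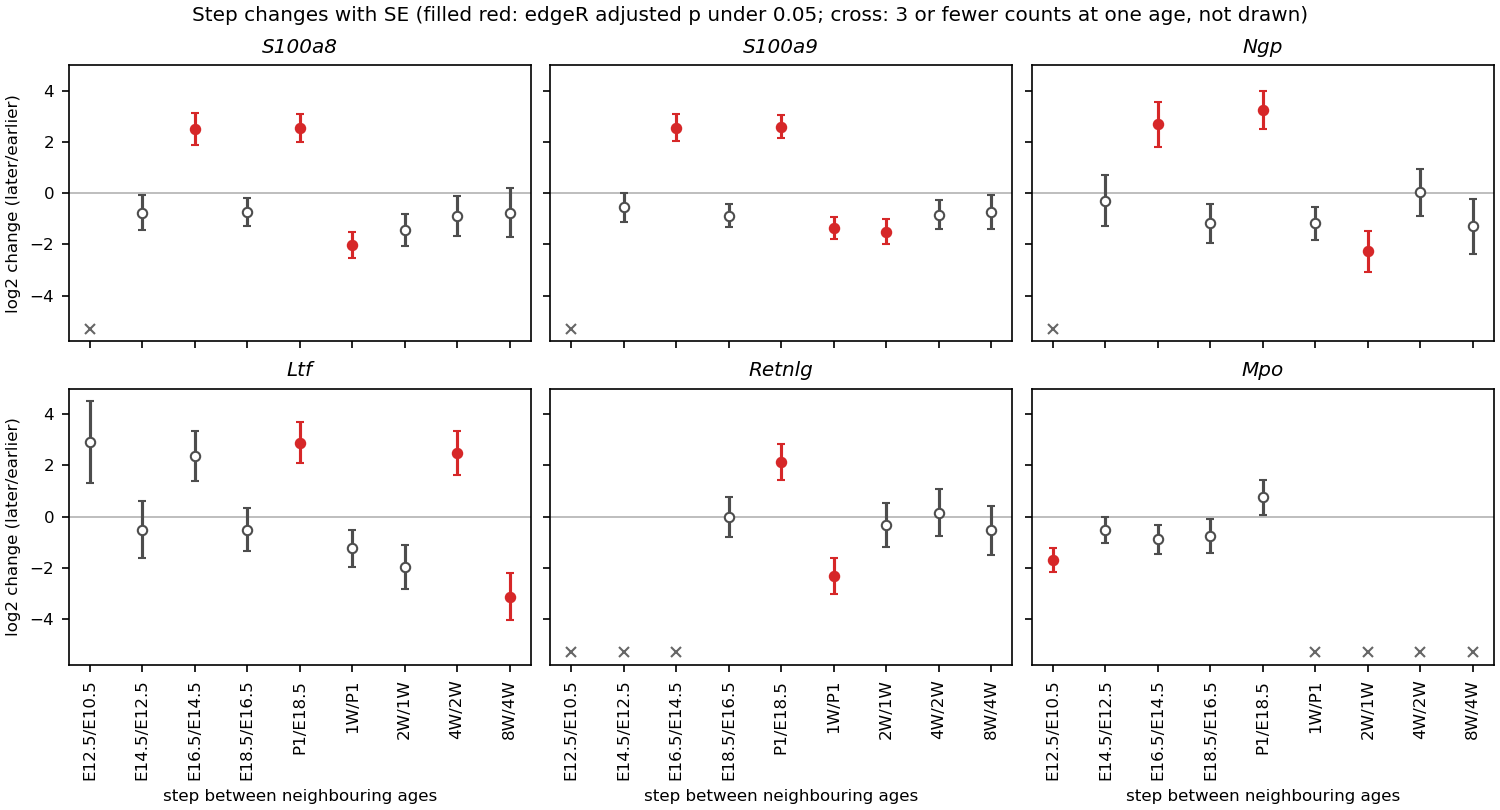
Log2 change with its SE between neighbouring ages for the 6 tested genes, red and filled where the edgeR adjusted p was under 0.05, with a cross at the foot where either age had 3 or fewer counts. The P1 against E18.5 step is above 2 for S100a8, S100a9, Ngp, Ltf and Retnlg, and Ltf alone has called steps in opposite directions at 4W and 8W.

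From P1 to 1W, 4 of 6 members fell, against 17% of all genes that fell, or 23.3% with library size alone. S100a8 fell by 2.04 ± 0.51 on the log2 scale (SE, adjusted p = 0.0022) and S100a9 fell by 1.37 ± 0.42 (adjusted p = 0.011). Retnlg fell by 2.31 ± 0.71 (adjusted p = 0.012). Mpo had 20 counts at P1 and 1 at 1W, a ratio of 26.6 (counting interval 4.26 to 1100, adjusted p = 0.0014). The secondary granule genes did not pass this step: the log2 change was -1.18 ± 0.65 for Ngp (adjusted p = 0.16) and -1.23 ± 0.72 for Ltf (adjusted p = 0.2), although every 1W library lay below every P1 library for both. Both passed when only the 6 libraries of these ages were fitted (adjusted p 0.0014 and 0.0036).

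The P1 to 1W calls of S100a9 and Retnlg leaned on single libraries. Without replicate 2 of P1 the S100a9 change was -1.19 (adjusted p = 0.054) and the Retnlg change -1.97 (adjusted p = 0.066), so 2 members were called, S100a8 (-1.8, adjusted p = 0.017) and Mpo (-4.37, adjusted p = 0.0024). Without replicate 1 of 1W the adjusted p of S100a9 was 0.061, and without replicate 3 of 1W that of Retnlg was 0.056. With a term for sex, Retnlg did not pass (adjusted p = 0.059). Mast cell and basophil markers fell in 3 of 4 tested over this step (24.4 to 37.4 CPM in sum and then 10.5 to 13.9, none at 0). Hepatocyte markers fell in 4 of 5 tested (1.29 to 46.4 and then 0.679 to 1.38, with Serpina1a and Fgb at 0 at 1W). Of 9 other later granule genes 4 fell. The part of the other cell types in the members' fall was not tested.

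From 1W to 2W, 2 of 6 members fell, against 14.1% of all genes. With scaling by library size alone, 4 of 6 passed, against 36.2% of all genes. S100a9 fell by 1.5 ± 0.48 on the log2 scale (SE, adjusted p = 0.019), a call lost without replicate 3 of 1W or 2 of 2W (adjusted p 0.066 and 0.096). Ngp fell by 2.27 ± 0.79 (adjusted p = 0.035). That call was lost with DESeq2 (adjusted p = 0.066), with no filter (adjusted p = 0.074) and with a term for sex (adjusted p = 0.067). It was also lost without any 1 of the 1W libraries or replicates 1 or 3 of 2W (adjusted p up to 0.12).

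Between the ends of the postnatal series all 6 tested members fell, against 35.1% of all genes that fell from P1 to 8W, or 65.2% with library size alone. The median log2 change was -4.59 over the members, or -4.16 with Mpo at its bound, and -0.1 over all genes. S100a8 fell by 5.15 ± 0.72 (SE, adjusted p = 1.8e-07), S100a9 fell by 4.45 ± 0.56 (adjusted p = 5.1e-08) and Ngp fell by 4.72 ± 0.89 (adjusted p = 7.9e-05). Ltf fell by 3.86 ± 0.91 (adjusted p = 0.00082) and Retnlg fell by 3.02 ± 0.81 (adjusted p = 0.0019). Mpo was at least 5.37-fold lower at 8W, where it had no counts (adjusted p = 0.00065). All 6 calls held without any 1 library. They also held with a term for sex, but that term rests on other ages and takes the sex effect as equal at all ages. As the P1 libraries held Y transcripts only and those of 8W Xist only, it cannot separate sex from age here. Over the same ages erythroid markers fell in 8 of 9 (3670 to 7110 CPM in sum at P1 and 2160 to 2760 at 8W, none at 0). Mast cell and basophil markers fell in 4 of 4 tested (24.4 to 37.4 CPM and then 3.19 to 3.97, with Mcpt8 at 0 at 8W). Macrophage markers rose in 7 of 10, from 149 to 207 CPM and then 362 to 403. The part of these cells in the members' fall was not tested.

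From E10.5 to E18.5 all 6 tested members passed, 5 higher and Mpo lower, against 63.3% of all genes in either direction. S100a9 was at least 28.4-fold, Ngp at least 14.4-fold and Retnlg at least 6.21-fold higher at E18.5, each from no counts at E10.5. S100a8 had a ratio of 56.9 (counting interval 9.82 to 2290, 58 counts against 1). Without replicate 2 of E10.5, which held that count, its fitted log2 change went from 5.31 to 7.14. Ltf rose by 4.27 ± 1.41 on the log2 scale (SE, adjusted p = 0.012), from 4, 0 and 0 counts. The change was 7.77 without replicate 1 of E10.5, the only library with counts, and 3.62 without replicate 3, where the call was lost (adjusted p = 0.053). Without replicate 2 of E10.5 all 6 calls held, with an adjusted p of 0.047 for Ltf. Over the same ages other marker lists rose too: macrophage in 10 of 10 genes (12 to 16.9 CPM in sum and then 121 to 142), mast cell and basophil in 4 of 4 tested (0.0323 to 0.357 and then 19.1 to 23.4, with Tpsb2, Ms4a2, Fcer1a and Mcpt8 at 0 at E10.5), hepatocyte in 4 of 5 and squamous epithelium in 3 of 3. The part of these cells was not tested.

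At 4W Ltf alone among the tested members was called. It rose by 2.47 ± 0.86 on the log2 scale from 2W to 4W (SE, adjusted p = 0.036) and fell by 3.13 ± 0.92 from 4W to 8W (adjusted p = 0.017). It was the only member called in either step, 1 of 6 tested, so these counts are near the background. Of all genes, 15.8% rose in the earlier step and 12.1% fell in the later one, or 6.46% and 19.5% with library size alone. At 4W, Ltf made 76.4% of the counts of the 8 genes, against 30.6% at P1. Replicates 1 and 2 of 4W carried the level, with 192 and 121 Ltf counts beside 1 and 9 of Ngp, while replicate 3 had 7 Ltf counts beside 22 of Ngp. Of 9 other later granule genes 4 rose from 2W to 4W: Hp by 3.64 ± 0.59 on the log2 scale (SE, adjusted p = 2.8e-05), Lcn2 by 2.3 ± 0.43 (adjusted p = 0.00013), Mmp9 by 2.04 ± 0.46 (adjusted p = 0.0012) and Cybb by 0.68 ± 0.14 (adjusted p = 0.00047). Macrophage markers rose in 8 of 10 (267 to 310 CPM in sum and then 416 to 453) and pan-leukocyte markers in 5 of 6 (44.2 to 57.7 and then 64.6 to 80.1), with none at 0. Erythroid markers rose in 5 of 9.

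Neither Ltf step was stable. The rise was lost without any 1 of the 2W libraries or replicates 1 or 2 of 4W (adjusted p 0.054 to 0.22). It was also lost with no filter (adjusted p = 0.057) and with a term for sex (adjusted p = 0.081). The fall was lost without replicate 1 of 4W or replicates 1 or 3 of 8W (adjusted p 0.063 to 0.11). Summed over 6 markers of squamous epithelium, replicates 1, 2 and 3 of 4W held 4.98, 3.49 and 2.48 CPM. The libraries of 2W held 2.33 to 3.1 CPM (Krt5 and Krt4 at 0) and those of 8W 0.68 to 1.02 (Krt5, Krt15 and Krt4 at 0), and 0 of 3 tested markers rose from 2W to 4W while 3 of 3 fell to 8W. The erythroid markers held 3770, 10800 and 7350 CPM at 4W. The part of these cells in the Ltf level was not tested.

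The make-up of the counts shifted from primary granule genes to later genes. At E10.5, Mpo gave 96.8% of the 218 counts of the 8 genes (Wilson interval 93.5 to 98.4%). Mpo and Elane together gave 34.2% at E12.5, 35.8% at E14.5, 4.43% at E16.5 and 1.14% of 1760 counts at P1. The libraries differed: replicates 1, 2 and 3 had shares of 72.5, 21.5 and 32.1% at E12.5 and 56.7, 59.6 and 14.6% at E14.5. At 8W they gave 0 of 72 counts, which allows a share of up to 4.17%. Ngp, Camp and Ltf gave 54.1% at P1 and 61.5% at 1W, and S100a8 and S100a9 gave 40.6% and 36.2%. These are shares of counts, to which longer transcripts contribute more, and not of molecules.

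**Figure D3:**
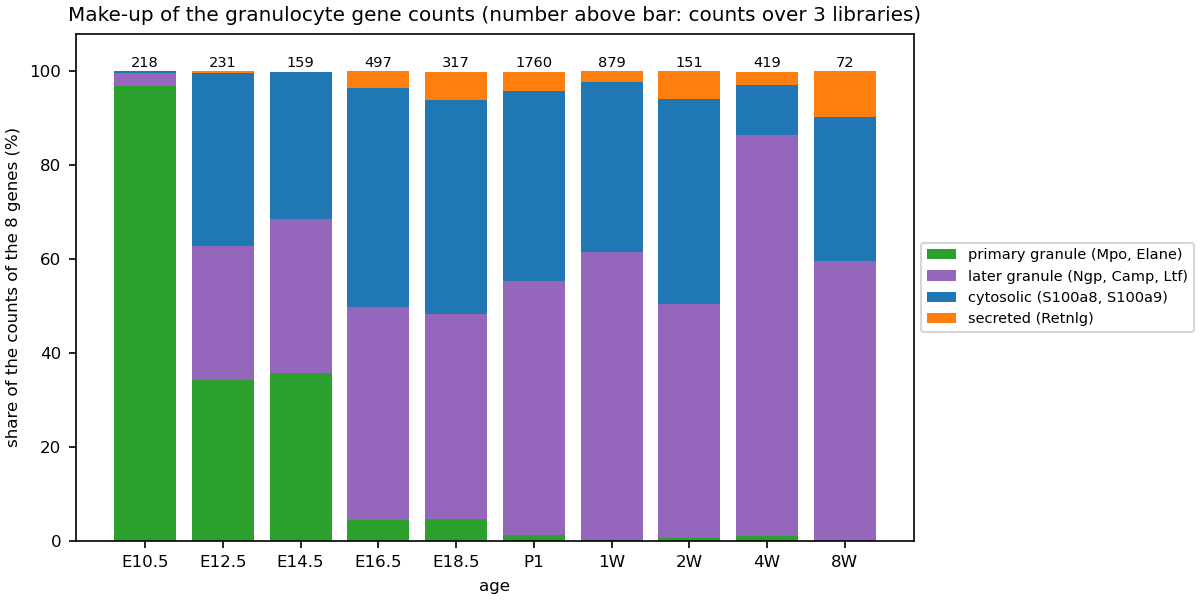
Share of the counts of the 8 genes, summed over 3 libraries, given by each role at each age, with the number of counts above each bar. Primary granule genes give 96.8% at E10.5 and 1.14% at P1, and the purple share at 4W is mostly Ltf.

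Set against Ptprc, the members' level at P1 was high, but not above that at E10.5. Ptprc was 4.5 ± 0.316 CPM at E18.5 and 4.95 ± 0.632 at P1 (SD, n = 3), a log2 difference of 0.14 ± 0.16 (SE, adjusted p = 0.54). The counts of the 8 genes per Ptprc count were 0.645 ± 0.182 at E18.5 and 4.01 ± 0.973 at P1 (SD, n = 3), 0.993 ± 0.0987 at 1W, and 0.0948 ± 0.0336 at 8W. The P1 libraries, 2.9 to 4.73, lay above every library of every other age except E10.5, where Mpo gave nearly all the counts and the ratio was 4.2 ± 2.86 (SD, n = 3), from 2.47 to 7.5. Other leukocyte genes did rise at birth: of 6 pan-leukocyte markers, Ptprc among them, 4 rose from E18.5 to P1, with a median log2 change of 0.54 (20.8 to 25.7 CPM in sum and then 29.3 to 40, none at 0). Ptprc rose by 1.06 ± 0.16 on the log2 scale (adjusted p = 6.6e-07) from P1 to 8W, while the 6 tested members fell.

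Markers of other cell types were read beside the members at birth. Of 10 macrophage markers 6 rose from E18.5 to P1, with summed levels of 121 to 142 CPM and then 149 to 207, and none was at 0. Of 6 monocyte markers 1 rose, Chil3, which is also read as a later granule gene below, and 2 fell, with a median log2 change of 0.54. Their sum was 513 to 524 CPM and then 366 to 405, mostly Vcan (means of 488 and 345 CPM), with none at 0. Of 7 mast cell and basophil markers 3 of the 4 tested rose, from 19.1 to 23.4 CPM and then 24.4 to 37.4, with none at 0. B cell markers rose in 3 of 5 tested, with a median log2 change of 1.58 (0.48 to 0.734 CPM in sum and then 1.25 to 1.88, none at 0). Erythroid markers rose in 2 of 9, platelet markers rose in 1 of 6 and held 7.89 to 10.5 and then 11.3 to 16.9 CPM, and hepatocyte markers rose in 0 of 5 tested. Over 6 eosinophil markers, none of which could be tested, the sum was 0.033 to 0.353 CPM at P1, with Prg3 at 0. The part of these cells in the members' rise was not tested.

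**Figure D4:**
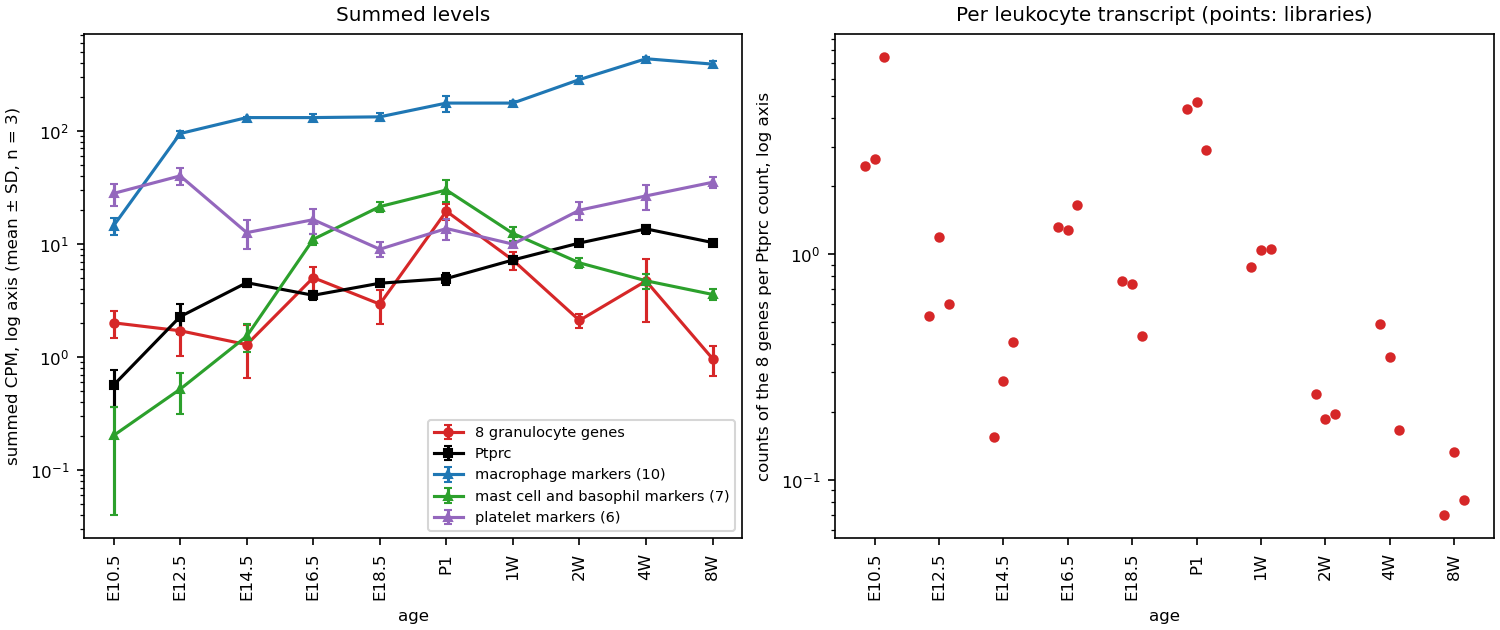
Left, summed CPM (log axis, mean and SD, n = 3) of the 8 genes, of Ptprc and of 3 marker lists by age. Right, counts of the 8 genes per Ptprc count in each library (log axis), with P1 at 2.9 to 4.73 and 8W at 0.0699 to 0.133.

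Other genes of the granulocyte lineage were read from lists chosen by known function. Of 9 other later granule genes, 6 rose from E18.5 to P1, with a median log2 change of 1.87. Chil3, a chitinase-like secreted protein that is also on the monocyte list, rose by 3.18 ± 0.72 (SE, adjusted p = 0.0009). Lcn2, the siderophore-binding lipocalin, rose by 2.31 ± 0.43 (adjusted p = 7.8e-05), the gelatinase gene Mmp9 by 2.4 ± 0.48 (adjusted p = 0.00016) and the neutrophil collagenase gene Mmp8 by 1.87 ± 0.6 (adjusted p = 0.014). Olfm4 and Cybb rose too, by 2.06 and 0.4. Cd177, Hp and Pglyrp1 had changes of 1.25, 1.19 and 0.96 that did not pass (adjusted p 0.1, 0.056 and 0.21).

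These genes split after birth. From P1 to 8W, 5 of the 9 fell, namely Mmp8, Chil3, Cd177, Pglyrp1 and Olfm4, and 2 rose. Of all genes, 35.1% fell and 31.8% rose, or 65.2% and 11.5% with library size alone. Calls in both directions were thus common in this comparison. In the same comparison Mmp9 rose by 1.17 ± 0.4 on the log2 scale (SE, adjusted p = 0.011) and Cybb, the phagocyte oxidase subunit that macrophages also make, by 1.19 ± 0.15 (adjusted p = 1.9e-08). Lcn2 had 3.03 ± 0.737 CPM at 8W against 1.96 ± 0.541 at P1 (SD, n = 3), a difference that did not pass (adjusted p = 0.14). Over the 3 libraries of 8W, Lcn2 and Mmp9 had 225 and 197 counts, and S100a8, S100a9 and Ngp had 6, 16 and 11.

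**Figure D5:**
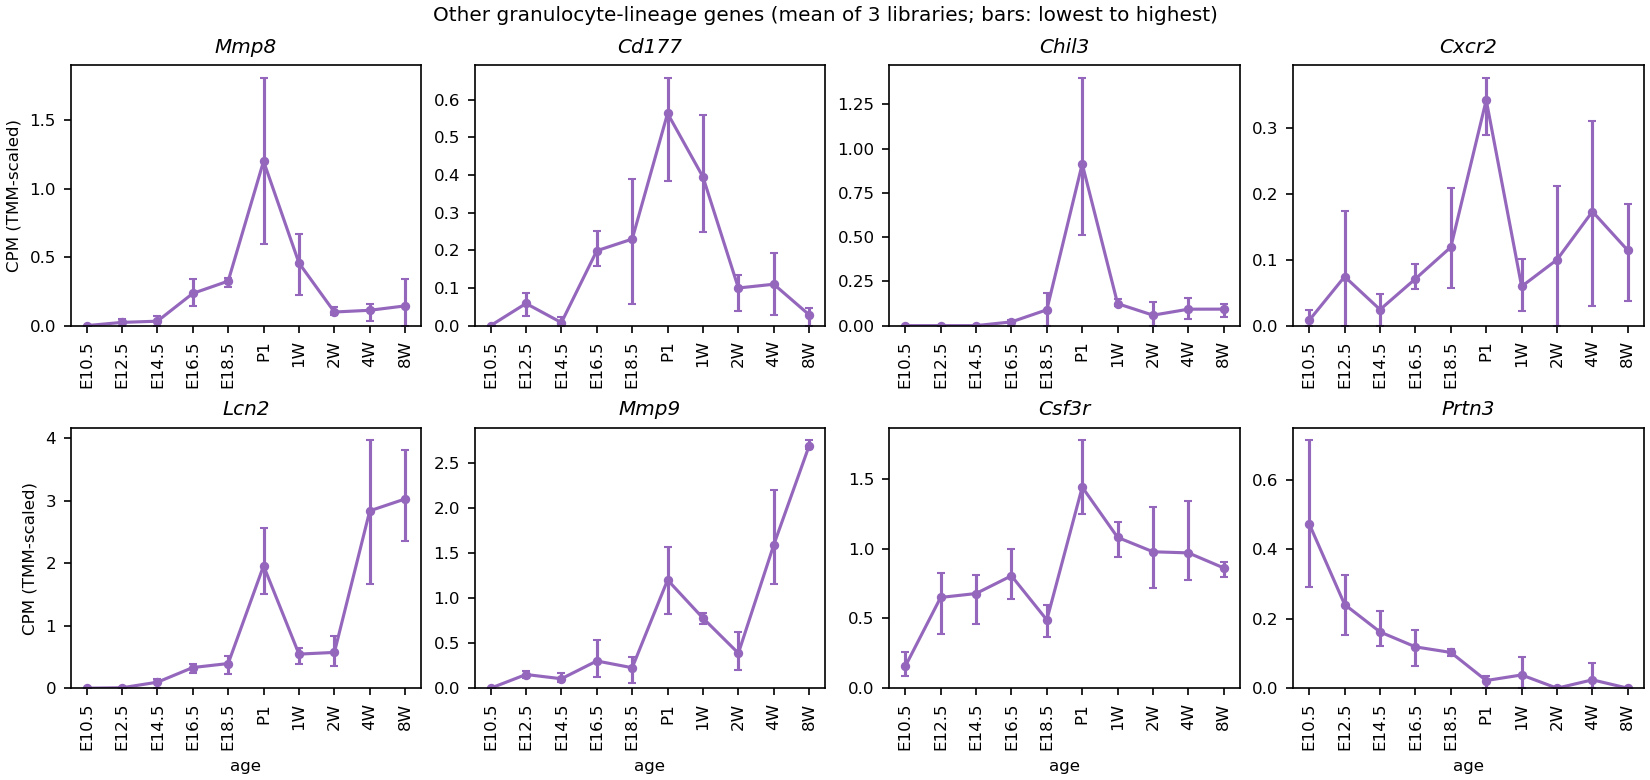
Mean CPM (points) with the lowest and highest of 3 libraries (bars) for 8 other granulocyte-lineage genes by age, each on its own linear axis. Mmp8, Cd177, Chil3, Cxcr2 and Csf3r have their highest mean at P1, Lcn2 and Mmp9 at 8W, and Prtn3 at E10.5.

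Of 12 genes of the mature neutrophil surface, 6 could be tested, and 2 rose from E18.5 to P1. Csf3r, the receptor for granulocyte colony-stimulating factor, rose by 1.57 ± 0.35 on the log2 scale (SE, adjusted p = 0.00054) and the integrin gene Itgam by 0.69 ± 0.18 (adjusted p = 0.0023). Cxcr2, a chemokine receptor below the filter, had 12 counts at E18.5 and 31 at P1. Ly6g, the usual surface marker of mouse neutrophils, had 5 counts, all at 1W.

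Transcription factor, ligand and receptor genes were read over the same step. Of 4 tested transcription factor genes, Cebpa and Spi1 (which encodes PU.1) rose, by 0.85 ± 0.27 and 0.84 ± 0.22 on the log2 scale (SE, adjusted p = 0.013 and 0.0023), and Runx1 and Myb did not pass. Cebpe, the factor of the secondary granule stage in neutrophil precursors, had 1 count at P1 and no more than 4 at any age. Of 3 tested ligand genes, the chemokine gene Cxcl1 rose by 2.14 ± 0.56 (adjusted p = 0.0026), from 20 to 75 counts. Of 4 genes for S100a8 and S100a9 receptors, Ager rose by 1.66 ± 0.45 (adjusted p = 0.0039) and Tlr4 by 0.34 ± 0.13 (adjusted p = 0.038).

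The other primary granule genes were sparse, and 2 of 4 could be tested. Prtn3, which encodes proteinase 3, had 50 counts at E10.5 and 32 at E12.5, then 20 at E14.5, 11 at E18.5, 2 at P1 and 0 at 8W. Ms4a3, a membrane protein of granulocyte and monocyte precursors, had 16 counts at E10.5 and at most 1 at any other age. Ctsg, encoding cathepsin G, had 12 counts at E10.5, 23 at E12.5 and 6 at P1. Prss57 was not highest at E10.5: it had 5 counts there, 23 at E12.5, 38 at E14.5, 17 at E18.5, 12 at P1 and 6 at 8W. Of the 2 tested genes, 0 rose and 1 fell from E10.5 to E18.5.

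Likeness of profile was measured by Pearson's r of log2 CPM (prior count 2) over the 30 libraries, which share ages, depth and blood content, and is a description. Between the tested members, r was 0.91 for S100a9 and Ngp and 0.879 for S100a8 and S100a9, and Mpo had r of -0.192 to -0.579 with the other 5. After the age means were taken out, r was 0.496 for S100a9 and Ngp, 0.353 for S100a8 and S100a9, 0.128 for S100a8 and Ngp, -0.27 for S100a8 and Retnlg and -0.636 for Ltf and Mpo, the lowest of the 15 pairs, so most of the likeness lay between ages. Of 15056 genes ranked against the mean of the members, the 8 most alike were Stfa2l1 (r = 0.902), Cd177, Impa2, Stfa2, Sh3bp4, Tmem71, Klf11 and Mmp8 (r = 0.859). Stfa2 and Stfa2l1, of the stefin A family of protease inhibitors, had 0.664 ± 0.166 and 0.967 ± 0.436 CPM at P1 (SD, n = 3) and no counts at 8W. These paralogs may share reads, so their levels are uncertain.

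For single members, the most alike genes were Mllt3 (r = 0.951) and Grhl1 (r = 0.948) for Mpo, Impa2 and Cd177 for Ngp, Zdhhc4 and Stfa2l1 for S100a8, and Mmp8 and Tpsb2 for Retnlg. After the age means were removed, r was -0.00516 for Mllt3 with Mpo and -0.0288 for Klf11 with the members' mean. Mllt3 had 75.2 CPM at E10.5 and 20.5 at E18.5. Klf11, a zinc-finger factor, stood at 25.2 CPM at E18.5 and 103 ± 13.9 at P1 (SD, n = 3), far above the members' levels.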

How the data were processed

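Poly(A) RNA of 30 mouse heart libraries was sequenced. The authors' deposited table gives an expected count for each gene and library, and 6.94% of its values were not whole (tolerance 1e-06). They were rounded, and the 8 genes' values were all whole. Per the submitters' processing notes, fastp 0.18.0 and STAR 2.5.3a were used, with GRCm38 and mm10 as builds. What counted the reads, on which annotation and strand, is not given in the sources used, so Mpo cannot be told from its antisense partner Gm11505. Symbols came from GENCODE M21 (48058 of 48820 genes).

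Genes passing filterByExpr (19280) were compared by edgeR 4.0.16 (R 4.3.3, TMM, robust quasi-likelihood F tests, Benjamini-Hochberg over all 19280), in 1 fit of 10 age means with 20 residual degrees of freedom. A gene was called at an adjusted p under 0.05. There was 1 test over all ages and 11 comparisons of 2 ages. SEs are the log2 change over the root of F. Libraries were scaled by TMM for CPM. Intervals for count ratios and shares are at 95% and cover counting error only. A group at 0 was set to 3 counts over the group.

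The genes, lists and tests were chosen with earlier results of these data known. Named genes were the members, genes of lists chosen by function, and those most like the members' mean (8) or single members (2 each). Alternatives were size factors, library size alone, filters, DESeq2 1.42.0, a replicate term, left-out libraries, globin and mitochondrial genes left out, only the 6 libraries compared, and, added after seeing the data, a sex term. Fits were tested on simulated data.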

Additional observations from a re-analysis of the deposited data

How the results depend on the processing

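No result reversed. Of 467 member counts recomputed under an alternative, 442 stayed within 1.5 times the main count, and of 1390 single-gene values 1342 kept their side of the threshold. For a comparison of 2 ages, most of the 30 fits without 1 library left out a library of another age. Members not tested under an alternative are absent from the 1390 values. These shares are therefore no measure of stability. With only the 6 libraries of a comparison, calls were 1 in place of 4 for E12.5 against E10.5, 2 in place of 4 for E16.5 against E14.5, 1 in place of 0 for E18.5 against E16.5, 4 in place of 2 for 2W against 1W, and 0 in place of 1 for both 4W against 2W and 8W against 4W. For E12.5 against E10.5 no tested member lost its call in that fit, and the missing members failed its filter on low counts. For E16.5 against E14.5, Ngp was tested and lost its call (adjusted p = 0.055), and any other missing call was of a member not tested. Library size alone gave 4 calls for 2W against 1W, and no filter gave 1. For 4W against 2W, 0 members were called with no filter, with a sex term, and with the replicate number as a block (Ltf, adjusted p = 0.051). The block changed no other call. Same-numbered libraries did not deviate together (135 pairs, r -0.1 to 0.12), so the numbers do not pair the samples. Leaving out 1 library gave 2 to 5 calls for 1W against P1, 0 to 3 for 2W against 1W, and 0 to 1 for each of 4W against 2W and 8W against 4W. The cause of the other differences was not tested.

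With library size alone as scaling, the median of all genes shifted on the log2 scale by -0.11 (P1 against E18.5, 1W against P1), -0.15 (E16.5 against E14.5, 8W against 4W), -0.16 (E18.5 against E10.5), -0.22 (4W against 2W), -0.29 (2W against 1W) and -0.77 (8W against P1). Of all genes tested, 9.48% were then called higher and 14.3% lower for E18.5 against E16.5, and 27.6% and 36.6% for E18.5 against E10.5. Each member's direction in the P1 comparisons was kept, and S100a8 then fell by 5.89 from P1 to 8W. Having 20 counts or fewer per age limits what can be said of Mpo from E18.5 on, of Camp and Retnlg outside P1 and of Elane at any age. The same holds for S100a8, S100a9 and Ngp at 8W (6, 16 and 11 counts) and for S100a8 at 2W and 4W (19 and 13). It holds for S100a8 and Ngp at E14.5 (19 and 18), and for S100a8, S100a9, Ngp and Ltf at E10.5.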
